A study of Petromyzon marinus with 21 samples.

Results

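HFM1 is the probable ATP-dependent DNA helicase measured by the probe comp293440, which the deposited annotation describes as expressed mainly in germ cells. It was chosen by its identifier and is 1 of the 43 target probes of a panel read in sea lamprey (Petromyzon marinus), a jawless vertebrate. Counts came from the NanoString nCounter, which counts barcoded probes hybridised to each transcript without amplification. The embryo groups were untreated whole embryos raised at 1 temperature and taken at 6 ages, named for the day after fertilization (D1, D2 and D2.5, then D3, D4 and D5), with 3 biological samples a stage. The adult group was testes RNA in 3 technical lanes, counted here as 1 biological sample. The labels give no strain, no sex or number of embryos in a sample and no number of adult animals.

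HFM1 is the vertebrate counterpart of the budding yeast helicase Mer3. It unwinds DNA during meiotic recombination, and in yeast and mouse it is needed for the normal number of crossovers between paired chromosomes. In mouse its transcript is found mainly in the gonads. Early lamprey embryos discard part of the germline genome from their somatic cells; whether HFM1 lies in the discarded part was not analysed here.

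All 21 lanes had a value of at least 1 for HFM1. No value in the file is under 1, so whether a 1 stands for 1 count or for none is not known. At D1 the raw count was 1 in each of the 3 lanes, the lowest value found in the whole file. At D2 it was 1, 5 and 1 in replicates 1 to 3. Every count at these first 2 stages lay under the background of its lane, which was taken as the mean + 2 SD of the 8 negative controls and was between 10.8 and 17.9 raw counts there. At D2.5 the counts were 8, 3 and 43, and at D3 they were 8, 14 and 77. At D4 replicate 1 had 3 counts, and lanes a and b had 51 and 13. At D5 replicate 1 had 3 counts, and lanes a and b had 26 and 30. Lanes a and b are those whose column names give the stage with a tag that no sample title holds, and the letters carry no order. The tag is shared by D4 lane a and by lanes a and b of D5, which differ by a final number. The labels give D5 as 3 biological samples, and the column names do not say whether these lanes are separate samples. In each of the 4 stages from D2.5 on, 2 of 3 lanes were above background and the remaining lane was not. D2.5 replicate 1 exceeded its background narrowly, with 8 counts against 7.78, and D3 replicate 1, also with 8 counts, lay under its own background of 11.4. Testes gave 6015, 5879 and 5815 counts against a background of 127 to 136.

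**Figure D1:**
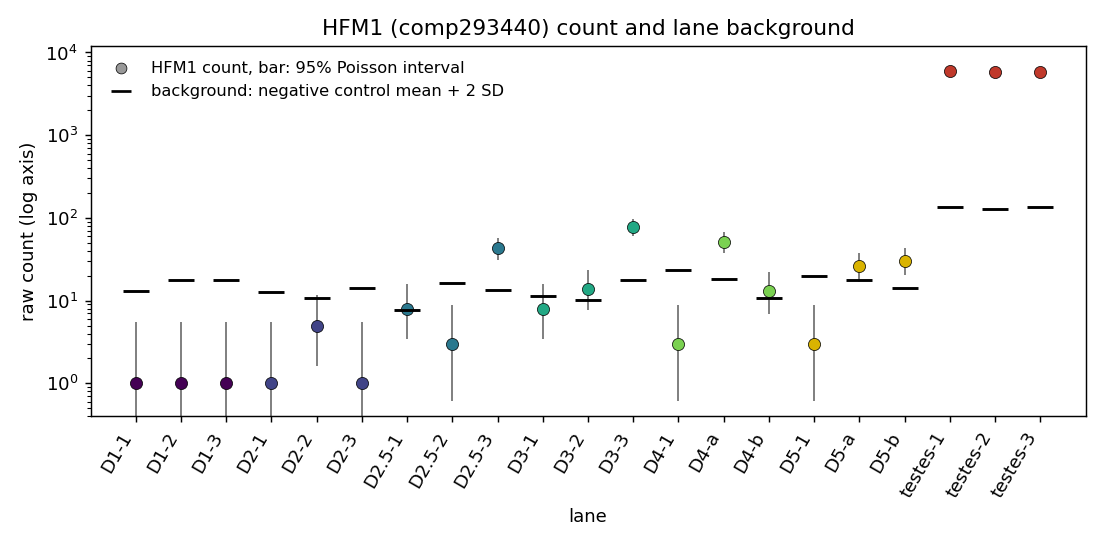
Raw count of HFM1 in each of the 21 lanes on a log axis, with the exact 95% Poisson interval as a bar (counting error only) and the background of the lane as a black dash. The D1 and D2 lanes lie under the dash, 8 of the 18 embryo lanes lie above it, and the testes lanes lie at 5815 to 6015 counts.

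HFM1 was therefore detectable in 8 of 18 embryo lanes, with raw counts of 8 to 77. The other 10 embryo lanes had 1 to 8 counts, and in these the number of negative controls at or above the HFM1 count ranged from 2 to 8 of 8. In all 3 lanes of D1 every negative control had at least as many counts as HFM1. A level under background at D1 and D2 was not detectable at this depth, which does not show that the transcript was absent. In whole embryos and whole testes, fewer cells with the transcript and less of it per cell cannot be told apart.

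The lanes differed widely in what they held of the panel. The sum of the 43 target probes was 504 to 15415 counts in the embryo lanes and 450972 to 473907 in testes. Column names also open with 3 different dates, taken here as 3 instrument runs, though the names do not say what a date marks. D1 to D3 are in the first, D4 and D5 in the second and testes in the third. Comparisons across those runs therefore cannot be told apart from the run. Embryo lanes were scaled to each other by EF1A_A (elongation factor 1 alpha) and HCFC-1, the 2 reference probes above background in all 18 lanes. A scaled count is the count divided by that factor, which averages 1. The reference probe RPS9 (a ribosomal protein) was above background in 2 of 3 D1 lanes and did not enter the scale. RPS9 went from 25.5 ± 4.81 scaled counts at D1 to 1100 ± 376 at D3 and 3500 ± 549 at D5 (SD, n = 3). Germ cell markers were present in testes, at 4853 to 5231 raw counts for the synaptonemal complex probe comp292635 and 521 to 579 for Piwi-1, whereas Piwi-2, with 98 to 116, was not above background there. A second probe of the synaptonemal complex, comp292635_9, had only 174 to 198 counts in testes.

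The mean scaled count of HFM1 was 1.39 ± 0.68 at D1 and 2.87 ± 2.32 at D2 (SD, n = 3). It was 12.9 ± 15.7 for the D2.5 lanes and 37.4 ± 42.9 for the D3 lanes (SD, n = 3). The later stages had means of 26.2 ± 26.5 (D4) and 22.6 ± 17.6 (D5, SD, n = 3). From D2.5 to D4 the spread between lanes of a stage was as large as its mean or larger. The order from the lowest to the highest mean was D1, D2, D2.5, D5, D4 and D3, and the ranges of every 2 neighbours in it overlapped. At D3 the scaled counts were 16.6, 8.85 and 86.7 in replicates 1 to 3. The third of these lanes lay apart by more than counting error, with a Poisson interval of 68.4 to 108 against 7.18 to 32.8 and 4.84 to 14.8. All D3 lanes were above all D1 lanes, which reached 2.14 scaled counts, and above all D2 lanes, which reached 5.39. Such a separation held for 73.7% of the 38 tested target probes between D1 and D3 and for 47.4% between D2 and D3. HFM1 also separated D4 and D5 from D1, as did 57.9% and 52.6% of the panel, but the lowest D4 and D5 lanes, at 2.73 and 2.24 scaled counts, were under their backgrounds. The separation of D3 has the same limit: replicate 1 was under its own background of 23.7 scaled counts, and replicate 2 was under the backgrounds of all D1 lanes, 14.7 to 38.2.

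Over the 6 stages at once HFM1 passed the test (edgeR quasi-likelihood, Benjamini-Hochberg over the 38 tested target probes, adjusted p = 0.0143), in a panel of which 52.6% passed. A fit of the first run alone, over D1 to D3, was added after the data were seen. In it the edgeR adjusted p of HFM1 was 0.00327 and 71.1% of the panel passed. Leaving out D1 replicate 1, 2 or 3 ended the call over the 6 stages (edgeR adjusted p = 0.0877, 0.0548 and 0.111). In the same edgeR fits the calls of the panel fell from 20 to 0, 4 and 0 of 38, with 17, 23 and 15 probes at an unadjusted p under 0.05. The call of HFM1 also ended in limma on log2(scaled count + 1) (adjusted p = 0.130). Under TMM and DESeq2's size factors, which are set by the target probes themselves, the edgeR adjusted p was 0.943 and 0.454.

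Scaled by EF1A_A and HCFC-1, HFM1 rose from D1 to D3, both read in the first run. The edgeR log2 fold change was 4.74 (SE 1.44, adjusted p = 0.00229), and 78.9% of the 38 tested probes were called in this comparison, 29 of them higher and 1 lower. HFM1 passed the filter for tested probes only through lanes of D2.5 and later, so its call is not independent of that filter. The share called is likewise a share of filtered probes. With no filter on low probes the edgeR adjusted p of HFM1 was 0.00222. Against the mean D1 background of 22.9 scaled counts the D3 mean of 37.4 was 1.63-fold higher. This is a bound on this scale only, and it takes D3 replicate 1 as read, under its own background. That bound rests on D3 replicate 3, since without it the D3 mean was 12.7 scaled counts, under the D1 background. Without D1 replicate 2, the lane with the highest scaled background, the bound was 2.45-fold. Leaving out D1 replicate 1 or 3 lowered it to 1.41-fold and 1.39-fold. The fitted value is larger because it uses the D1 counts of 1 as they stand, under background. The call held without any single lane, with log2 fold changes of 3.17 to 5.21 and an edgeR adjusted p of at most 0.0471, reached without D3 replicate 3, when the calls of the panel fell from 30 to 19. Over the panel the median was 4.36 on the same scale, so HFM1 lay 0.38 above it and ranked 17th of 38. With TMM the log2 fold change of HFM1 was 0.096 (edgeR adjusted p = 0.951) and with DESeq2's size factors 0.20 (0.919), beside panel medians of −0.17 and −0.048. The balance of the panel turned under these scales, with 6 of 20 called probes higher at D3 under TMM and 7 of 21 under DESeq2's size factors. Scaled by the sum of the target probes, HFM1 still rose, by 2.59 (edgeR adjusted p = 0.00385), and 20 of 22 called probes were higher. The single probe comp293586 made up 68.7% of that sum at D1 and 13.7% at D3, so this scale largely followed that probe at D1. A sum without comp293586 was not tested as a scale. A scale by RPS9, which went from 25.5 to 1100 scaled counts over the same stages, was not tested either.

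From D1 to D5 HFM1 also rose on the scale of EF1A_A and HCFC-1, by a log2 fold change of 4.01 (SE 1.41, edgeR adjusted p = 0.0115). In this comparison 65.8% of the panel was called and the panel median was 3.50. RPS9 went from 25.5 to 3500 scaled counts between these stages, and a scale by RPS9 was not tested. These stages were read in different runs. The D5 mean lay under the mean D1 background, so no fold bound can be given. The D5 level rests on lanes a and b, at 32.1 and 33.4 scaled counts against 2.24 in replicate 1. The labels give D5 as 3 biological samples, and lanes a and b are its only lanes besides replicate 1. The column names do not say whether lanes a and b are separate samples, and the fit counts them as separate. The 14 embryo lanes with a replicate number keep only replicate 1 of D5, and over them the log2 fold change was 0.76. Leaving out either replicate 1 or replicate 3 of D1 also ended the call (adjusted p in edgeR 0.0598 and 0.0683), and the calls of the panel fell from 25 to 14 and 13. Without lane a of D5 the panel had 16 calls and HFM1 stayed past the threshold (edgeR adjusted p = 0.0380), and with TMM the sign turned, to −0.043. In the panel 24 of 25 called probes were higher at D5, against 2 of 12 under TMM and 7 of 17 with DESeq2's size factors.

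Between successive stages HFM1 did not pass the test, and neither did any other tested probe (0% called by edgeR in each of the 5 steps). At an unadjusted p under 0.05 edgeR gave 8 probes for D2 vs D1 and 0 for each of the other steps, and DESeq2 called 2 probes in the first step and 1 in the last, HFM1 not among them. Scales set by the target probes gave 9 or 10 calls from D1 to D2 (10 with TMM, 9 by DESeq2's size factors, 10 by the sum), again without HFM1. The log2 fold changes of HFM1 were 1.09 from D1 to D2 (SE 1.43, edgeR adjusted p = 0.709), 2.13 from D2 to D2.5 (SE 1.28, edgeR adjusted p = 0.422) and 1.52 from D2.5 to D3 (SE 1.17, edgeR adjusted p = 0.409). Those of the later steps were −0.51 from D3 to D4 (SE 1.15, edgeR adjusted p = 0.801) and −0.22 from D4 to D5 (SE 1.16, edgeR adjusted p = 0.982). The step from D2 to D2.5 was among the larger ones of the panel, 5th of 38, and fell to 0.45 without D2.5 replicate 3, the lane with 43 counts. The step from D2.5 to D3 came to −0.049 without D3 replicate 3. Same-numbered lanes of D2.5 and D3 deviated together over the panel, with correlations of 0.173 to 0.794. In no other pair of first-run stages were all 3 correlations over 0.1. A fit with the replicate number as a block for the 6 lanes of D2.5 and D3 was added once the values were known. In it HFM1 rose by a log2 fold change of 1.59 (edgeR adjusted p = 9.4e-05), as did 92.1% of the panel. Because the pair was picked from these same values, that p-value is no independent support for a rise. The difference between same-numbered lanes was 1.33, 1.75 and 1.46 on the scale of log2(scaled count + 1). That call ended with positive controls as the scale (1.15, edgeR adjusted p = 0.242), the sum of the target probes (0.52, 0.397), TMM (0.10, 0.994) or DESeq2's size factors (0.11, 0.966).

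**Figure D2:**
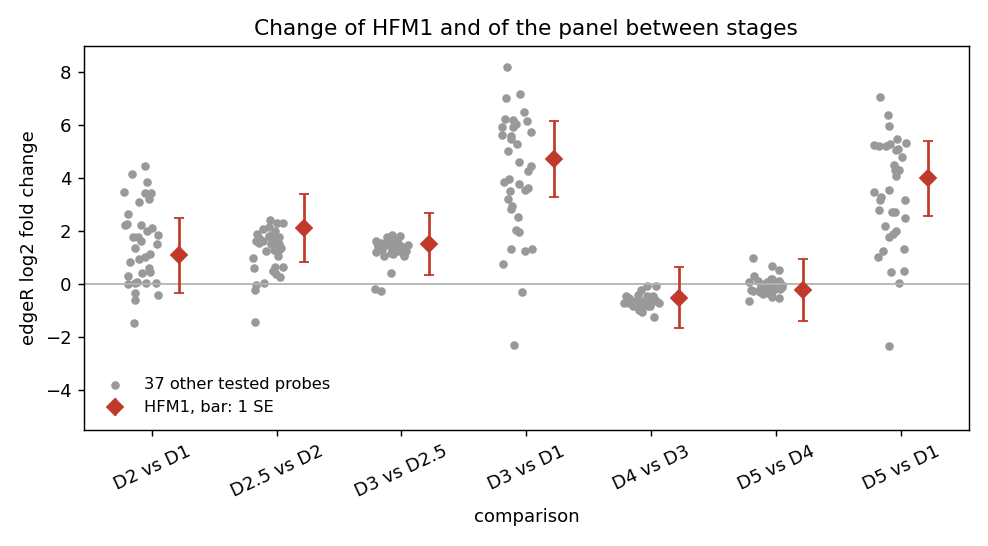
The edgeR log2 fold change of HFM1 (red, with 1 SE) and of the 37 other tested target probes (grey) in 7 comparisons between embryo stages. HFM1 lies inside the spread of the panel in each of them, at 4.74 beside a panel median of 4.36 for D3 vs D1.

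HFM1 followed the level of the panel from lane to lane. That level was computed for each lane by averaging log2(scaled count + 1) over the 37 other tested target probes. Across the 18 embryo lanes, Pearson's r between HFM1 and that level was 0.978 and Spearman's rho 0.936, and r was 0.966 without the 2 lanes farthest from the median panel level. This is a description, since all values of a lane share its scaling factor, its RNA input and its background. The lanes with HFM1 above background held 2499 to 15415 target counts, and those without it 504 to 3172.

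On the log2 scale, HFM1 minus the panel level was −1.64 ± 0.20 at D1 and −2.22 ± 0.66 at D2 (SD, n = 3). For D2.5 it was −1.66 ± 0.32 and for D3 −1.50 ± 0.24 (SD, n = 3). The D4 and D5 lanes had −1.60 ± 0.51 and −1.60 ± 0.21 (SD, n = 3). The stage means ranged over 0.72, from D2 as the lowest to D3 as the highest. A permutation test over stages did not show a difference between them (100000 resamples, p = 0.318). Without D2 replicate 3 the same permutation test gave p = 0.0493, with D2 lowest and D3 highest. The order of the stages depended on the measure. D1 was highest with the panel median, with the negative controls subtracted and with a pseudocount of 10, where D3 was lowest. D3 stayed highest on raw counts and by the logit of the share of target counts. In each D1 lane, 12 to 14 target probes, HFM1 included, were tied at 1 count, so the test could hardly show HFM1 departing from the panel there. At D1 the lanes had 3 to 7 of 43 target probes above background, and at D2 they had 18, 32 and 3 in replicates 1 to 3. In D2 replicate 2, the lane with 32, HFM1 itself was under background and lay 2.30 below the panel. In the 8 lanes where HFM1 was above background the difference ranged from −1.75 to −1.26.

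**Figure D3:**
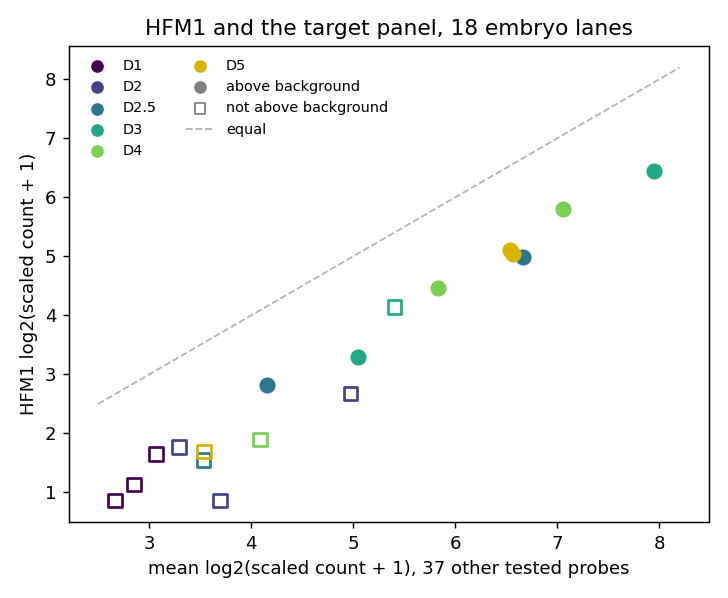
Level of HFM1 against the mean level of the 37 other tested target probes in the 18 embryo lanes, both as log2(scaled count + 1), with the stage as the colour, filled circles for lanes above background and open squares for the others; the dashed line marks equal levels. The points rise together, and HFM1 lies 1.26 to 1.75 under the panel in the filled lanes.

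As a share of all target counts, HFM1 made up 0.0657% of the pooled D1 counts (exact binomial interval 0.0136% to 0.192%) and 0.458% of those at D3 (0.372% to 0.557%). The probe of aspartate aminotransferase, comp293586, an amino acid enzyme, alone took 68.7% of the D1 counts and 13.7% of those at D3. With that probe left out the HFM1 share was 0.21% at D1 (0.0434% to 0.614%) and 0.271% at D2. It was between 0.522% and 0.61% in the 4 later stages, with D2.5 the lowest of them and D4 the highest. The D1 share rests on 3 counts, all from lanes with HFM1 under background, and this last interval overlaps that of D3, 0.431% to 0.645%. Of the 99 HFM1 counts at D3, 77 came from replicate 3. The mean share of all target counts over the D3 lanes was 0.439% (SD 0.121%). These intervals cover counting error only and not the spread between samples. Those of D1 also take each value of 1, the lowest in the file, as 1 count.

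In testes HFM1 was far above every embryo stage. With all 21 lanes scaled by HCFC-1, the only reference probe above background in all of them, the testes level was 2556 ± 110 scaled counts (SD over 3 technical lanes) against 61.7 ± 80.7 at D3 (SD, n = 3), the highest embryo stage. That is 41.4-fold, with no test, since testes are 1 biological sample. HCFC-1 itself had 167 to 177 raw counts in testes against lane backgrounds of 127 to 136, so the fold rests on a reference near background. Without D3 replicate 3, which had 155 scaled counts on this scale, D4 was the highest embryo stage at 39.9 and the fold was 64.02. The size depended on the scale, at 110-fold with the positive controls only and 2.91-fold with the sum of the target probes, which rose with HFM1. EF1A_A had 12 to 22 raw counts in testes and 124 to 863 in embryos, so a scale that uses it raises the testes level. The deposited signal values of HFM1 matched a scale by the sum of EF1A_A and EF1A_B. They were 14356, 18079 and 21005 in testes and at most 55.96 in an embryo, in D3 replicate 3. EF1A_B had 180 to 240 raw counts in testes and 1 to 8 in embryos, so EF1A_B made up most of that sum in testes and EF1A_A in embryos. Shares of the target counts, which need no reference, were 1.27%, 1.27% and 1.29% in the testes lanes, above the 0.576% reached in D4 lane a, the highest embryo lane. With comp293586 left out the highest embryo lane was a D3 lane at 0.655%, against 1.27% to 1.29% in testes.

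HFM1 also ranked higher within the panel in testes than in embryos. By raw count it ranked 18th of 43 target probes in each testes lane, and 31st to 35th in the 8 embryo lanes where it was above background. Probes can differ in how well they capture their transcript, so these ranks order counts and not transcripts. With all 21 lanes scaled by HCFC-1, the difference from the panel level was 0.0081 ± 0.015 on the log2 scale in testes (SD over 3 technical lanes). In those embryo lanes it was −1.78 to −1.26 on the same scale.

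A ratio of embryo to testes counts for each probe removes that difference in capture. Summed over all embryo lanes HFM1 had 289 counts, or 16.3 for every 1000 counts summed over the testes lanes. This was the second lowest ratio of the 43 target probes. The lowest, 6.59, was that of the myosin-7B probe comp292635_13, which was above background in no embryo lane, and the next above HFM1 was the unannotated comp293073_4 with 21.9. MAD2L1-binding protein (comp280581, of the spindle checkpoint) had nearly the same testes count as HFM1, 6032 against 5903 raw counts per lane, but 1800 embryo counts. Background was not subtracted from these sums.

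Within single lanes the same order held. Per 1000 counts of its testes mean HFM1 had 13.04 in D3 replicate 3, where the median of the 37 other tested probes was 31.0. It had 7.28 against 18.7 in D2.5 replicate 3, 8.64 against 17.1 in D4 lane a, 4.40 against 10.6 in D5 lane a and 5.08 against 11.6 in D5 lane b. In the other 3 lanes with HFM1 above background it had 1.36 against 2.53 (D2.5 replicate 1), 2.37 against 6.51 (D3 replicate 2) and 2.20 against 4.83 (D4 lane b). HFM1 was thus at 36.4% to 53.6% of the panel median in all 8 lanes, and at 30.5% to 48.4% after the geometric mean of the negative controls was subtracted. Among the 34 to 38 tested probes above background in a lane it had the lowest ratio in 5 of the 8 lanes, the second lowest in D4 lane a, the third in D3 replicate 2 and the fourth in D2.5 replicate 1. No test was made, because testes were 1 sample.

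**Figure D4:**
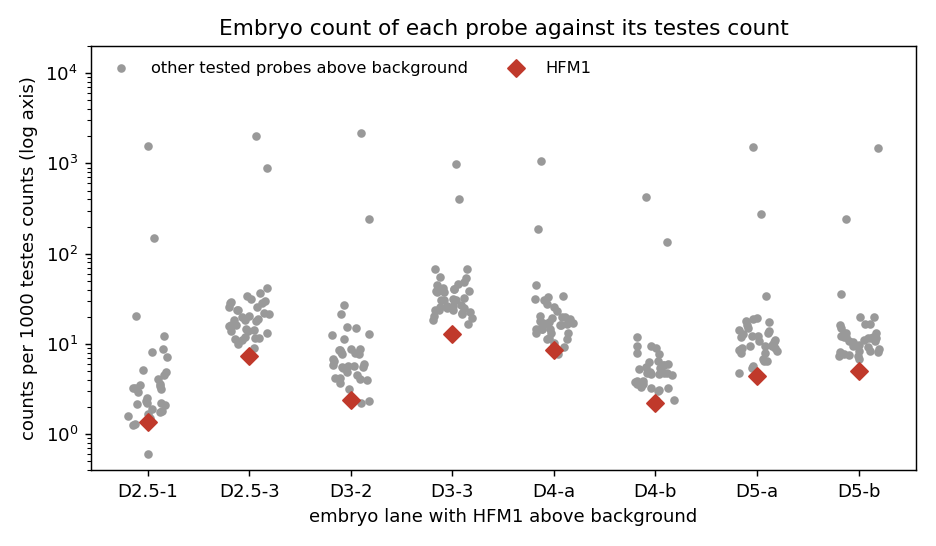
Count of each tested target probe per 1000 counts of its testes mean, on a log axis, in the 8 embryo lanes with HFM1 above background; grey points are the other probes above background and the red diamond is HFM1. HFM1 lies at or near the bottom of each lane, at 13.04 in D3 replicate 3 beside a panel median of 31.0.

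The probes whose embryo pattern was most like that of HFM1, by Pearson's r of log2(scaled count + 1) over the 18 embryo lanes, were the unannotated comp293073_4 (0.981), comp274039 (0.976), comp293931 (0.975), comp286889 (0.974) and comp3124724 (0.972). Likeness of this size was common, since the panel moved together. After the panel level was subtracted in each lane the 5 most alike were comp292169 (0.694), comp274039 (0.663), comp293931 (0.638), WNT-5a (comp249676, a secreted signalling protein, 0.60) and comp293073_4 (0.560). Of these, comp293073_4, comp274039 and comp293931 appeared in both lists. These values describe 18 lanes that share their scaling and background.

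Of the other target probes on a list of meiosis and germ cell names, 3 were tested. They were 2 probes of the synaptonemal complex protein 1 (SYCP1, which joins paired chromosomes in meiosis) and MAD2L1-binding protein, which the deposited annotation assigns to cell proliferation. From D1 to D3, where HFM1 rose, the SYCP1 probe comp292635_9 fell by 2.28 on the log2 scale (SE 1.02, edgeR adjusted p = 0.0338), from 211 ± 155 to 43.2 ± 36.2 scaled counts (SD, n = 3). The other probes did not pass, with log2 fold changes of 0.77 for comp292635 (edgeR adjusted p = 0.553) and 1.27 for MAD2L1-binding protein (edgeR adjusted p = 0.299). In D1 lanes, where HFM1 had 1 count each, comp292635_9 had 294, 21 and 286 raw counts in replicates 1 to 3. Summed over lanes this probe had 2741 embryo counts for every 1000 testes counts, against 16.3 for HFM1. The third SYCP1 probe, comp288706, was above background in 2 of 18 embryo lanes and was not tested; it had 503 to 550 counts in testes. Piwi proteins are known for silencing transposons in the germline of animals. Piwi-1 went from 42.4 ± 14.3 scaled counts at D1 to 7.94 ± 2.87 at D3, and Piwi-2 from 57.0 ± 15.4 to 13.6 ± 7.51 (SD, n = 3), with no test. At D3 both were above background in 0 of 3 lanes, so these D3 levels are only bounded by background. At D5 Piwi-1 had 26.4 ± 3.14 scaled counts (SD, n = 3) and was above background in all 3 lanes. Both belong to the reference class and were not part of the tested panel.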

How the data were processed

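The deposited raw counts, 1 whole number for each probe and lane per the file headers, were the starting point. The authors also deposited normalized signal values, for which no source used here names the software or settings. All 833 signal values of the 17 lanes with a replicate number came within 2% of the counts after the geometric mean of the negative controls was subtracted (floor 1) and the lane scaled to 1 sum of EF1A_A and EF1A_B. They served as an alternative.

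Of the 43 target probes, the 38 that exceeded background in 3 or more embryo lanes were tested. HFM1 met this filter only through lanes of D2.5 and later, so its calls against D1 are not independent of it. The geometric mean of EF1A_A and HCFC-1 set the scale of a lane. Positive controls were entered first, but their term cancels out of that factor, so they corrected nothing in it. Stages were compared over 18 embryo lanes in edgeR 4.0.16 (R 4.3.3; quasi-likelihood, robust, stage as factor; two-sided, threshold 0.05). The SE is the log2 fold change over the square root of F. limma 3.58.1, DESeq2 1.42.0 and SciPy 1.17.1 served for alternatives and intervals. The edgeR fit was also run on simulated data, with a spread between lanes (dispersion) set well below the 0.91 estimated here. That run cannot show how the fit performs at the spread of these lanes. A fold against a stage wholly under background uses that background. It is a lower bound only on the scale used, with the lanes of the higher stage taken as read.

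Named probes were HFM1, the 5 most alike by each measure, and a meiosis and germ cell list. Member, lists and tests were chosen with earlier results of these data known. The number paired no stages but D2.5 and D3 (all 3 correlations over 0.1), which comes from the values. Embryo samples are biological triplicates per the labels. The design text and the sample labels name different RNA extraction methods and do not say which lane had which.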

Additional observations from a re-analysis of the deposited data

How the results depend on the processing

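The rise of HFM1 from D1 to D3 stayed past the threshold in 32 of 35 alternatives. The call ended with TMM (log2 fold change 0.096), DESeq2's size factors (0.20) and limma with a pseudocount of 10 (1.68, adjusted p = 0.0738). Leaving out single lanes gave 3.17 to 5.21. From D1 to D5 the range without single lanes was 3.60 to 4.55. That call ended with DESeq2's size factors (0.25), in limma with pseudocounts of 1 (2.73) and 10 (1.31) and on the deposited signal values (2.80). On the 14 numbered lanes, which keep 1 lane of D5, the log2 fold change was 1.52 with the replicate block and 0.76 without it. A fit without D4 lane a and D5 lanes a and b, whose column names share a tag, also gave 0.76. That fit was added after the data were seen and again keeps 1 lane of D5. The sign turned with TMM (−0.043). Those 3 lanes had 26 to 51 HFM1 counts and 5986 to 8847 target counts, and the other 3 of that run 3 to 13 and 1769 to 3172.

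Over the 6 stages the adjusted p ranged from 0.00125 to 0.111 without single lanes. It missed the threshold with TMM (0.943), DESeq2's size factors (0.454), the negative controls' geometric mean subtracted (0.144), the replicate block (0.0867, against 0.00463 on the same lanes without it) and limma with pseudocounts of 1 (0.130) and 10 (0.398) and on the signal values (0.236). Beside the same numbered lanes without it, the planned block changed no other call of HFM1. The call from D1 to D5 ended on those lanes both with and without the block, and they keep only 1 lane of D5.

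The number of probes called over the 6 stages was 20 and fell to 0, 4 and 0 without D1 replicates 1 to 3, 6 with TMM, 9 with DESeq2's size factors, 8 with the negative controls' geometric mean subtracted, 5 with the block and, in limma, 8 with a pseudocount of 1, 14 on the signal values and 0 with a pseudocount of 10 (9 at an unadjusted p under 0.05). For D3 vs D1 it was 17 in limma with a pseudocount of 10, against 30. For D5 vs D1 the numbered lanes keep 1 lane of D5, so no number of calls is given for them.

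Among steps that did not pass, the sign turned for D2 vs D1 with TMM (−0.41) and DESeq2's size factors (−0.82) and for D3 vs D2.5 with TMM (−0.034). It also turned for D4 vs D3 when the target sum set the scale (0.027), and for D5 vs D4 with DESeq2's size factors (0.071), EF1A_A alone (0.042) and the signal values (0.23). Without single lanes these steps ranged from 0.12 to 1.57, −0.049 to 3.20, −1.68 to 1.06 and −0.76 to 0.95, and D2.5 vs D2 from 0.45 to 3.10. The replicate block over the lanes of D2.5 and D3, a pair picked from the values, gave 1.59, past the threshold. The cause of these changes was not tested. HFM1 minus the panel level gave p between 0.0493 and 0.870 without single lanes and 0.157 to 0.697 in the other alternatives (permutation test). The testes fold moved to 110 (positive controls), 2.91 (sum of the target probes) and 719 (signal values), and ranged from 29.7 to 64.02 without single embryo lanes, an alternative chosen after seeing the data. Above the mean + 3 SD of the negative controls, HFM1 was detectable in 6 embryo lanes in place of 8. Counts of 1 to 8 in 11 of 18 embryo lanes limit what can be shown at D1 and D2.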
